A study of Mus musculus with 2 samples.

Results

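The 4 genes described here, Krt6a, Krt6b, Krt16 and Krt17, encode the stress or wound keratins of mouse epidermis. Their chromatin accessibility was read from single-cell ATAC-seq of embryonic back skin at E16.5. A region was assigned to them if it lay within 500 bp of a transcription start site, inside the gene body, or within 10 kb of the gene. This gave 25 of the 369634 regions obtained by merging the peaks of both libraries. The 4 genes were selected as a family after Krt16 had been seen to mark the epithelial cells of the mutant library, so its promoter level in those cells is what chose it and is given as a description.

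Keratins form the intermediate filaments of epithelial cells as pairs of a type I and a type II protein. Krt6a and Krt6b are neighbouring type II genes on chromosome 15, and Krt16 and Krt17 are neighbouring type I genes on chromosome 11. In intact interfollicular epidermis these genes are largely silent, while parts of the hair follicle and other appendages express them, and injury or hyperproliferation induces them in keratinocytes. Accessible chromatin at a promoter or a flanking region marks DNA that transcription factors can reach, but it does not measure RNA.

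There was 1 Control and 1 MOF cKO library. MOF cKO embryos carry homozygous floxed alleles of the gene for the histone acetyltransferase MOF and Cre driven by the Krt14 promoter, which acts in epithelial and not in dermal cells. In both groups a Krt14-driven nuclear GFP marked epithelial cells, and the sorted GFP-positive and GFP-negative cells were recombined, so the share of epithelial cells was set by the sort. The labels give the ratio as 5 parts to 1 and the text of the study gives other ratios, while 56.3% of Control and 60.7% of MOF cKO cells were epithelial-like here. The label Control gives no genotype. Because each genotype had 1 library and no replicate, no difference between genotypes was tested, and each interval given is a 95% interval that covers counting error only.

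In the Control library 249679 peaks and 2541 barcodes had been called, with a median of 62973 cut sites per barcode left by the transposase, and in the MOF cKO library 340134 peaks and 4348 barcodes, with a median of 66240 sites. The libraries shared 21 barcode sequences. Clusters were named from promoter accessibility at marker genes. The epithelial-like class held 1396 Control and 2640 MOF cKO cells and the fibroblast-like class 648 and 1235. Immune-like cells numbered 46 and 281, mural-like cells 19 and 69, and endothelial-like cells 9 and 26. Of the rest, 363 Control and 97 MOF cKO cells stayed unnamed, 310 and 21 of them in cluster 9, where the Control cells had a median of 2511 sites and the MOF cKO cells of 49145, and 60 Control barcodes under 1000 sites were left out. In the epithelial-like class all 10 epithelial markers were accessible in both libraries, with summed levels of 353.8 CPM in Control and 285.6 CPM in MOF cKO, and Krt14 was the 1 marker that was higher in MOF cKO. Accessibility is given as CPM, the usual scaling of counts to sequencing depth, with the depth taken as the sites of the same cells in the 214119 regions that had a peak in both libraries.

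Pooled over clusters, the promoters of Krt6a and Krt16 in epithelial-like cells were several-fold more accessible in MOF cKO than in Control. The Krt17 promoter was about level in the pooled cells, and a peak at the Krt6b promoter was called in MOF cKO alone. The Krt16 promoter, whose product pairs with keratin 6, stood at 12.7 CPM in Control (exact Poisson interval 11.8–13.7) and at 41.1 CPM (39.8–42.3) in MOF cKO, a 3.22-fold difference (exact conditional interval 2.978–3.49). The Krt6a promoter had 2.66 CPM (2.25–3.11) in Control and 11.1 CPM (10.4–11.7) in MOF cKO, a 4.16-fold difference (3.52–4.97).

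For Krt17, which is also a gene of developing hair follicles and periderm, the promoter had 14.1 CPM (13.1–15.1) in Control and 12.4 CPM (11.7–13.1) in MOF cKO. Its log2 change, MOF cKO over Control, was −0.18 (−0.31 to −0.05), and the direction depended on the scaling, since median-of-ratios size factors gave 0.22 (0.09 to 0.35). Thinning every cell to 5000 sites gave 0.089 (−0.44 to 0.63), an interval that covers both 0 and −0.18. Krt6b, the near twin of Krt6a, had 0.875 CPM (0.700–1.07) from 181 sites at its promoter in MOF cKO epithelial-like cells. Control had no peak there and so no value. Per kilobase of promoter region the levels ranked Krt17 at 16.1, Krt16 at 13.8 and Krt6a at 2.64 CPM per kb in Control. In MOF cKO the order was Krt16 at 44.5, Krt17 at 14.2, Krt6a at 10.96 and Krt6b at 1.08 CPM per kb, and on this scale the counting intervals of neighbours in either order did not overlap, those of Krt16 and Krt17 in Control by a small margin.

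These changes were set beside all promoters. In epithelial-like cells 2.31% of 16163 promoters were 2-fold or more higher in MOF cKO and 2.29% were lower by that factor. Of the 3 stress keratins with a value in both libraries, 2 rose past 2-fold and 0 fell past it, and as Krt16 was selected on this contrast the count carries no weight. The median log2 change of all promoters was −0.40, and it moved with the total used for scaling, to −0.55 with sites in all own peaks, to −0.49 as sites per cell and to 0 with median-of-ratios size factors. The shares of promoters past 2-fold then became 1.90% higher and 4.12% lower, 2.06% and 3.27%, and 4.42% and 0.557%. Relative to that median Krt6a was at 2.46, Krt16 at 2.09 and Krt17 at 0.22. Counted from the largest increase, Krt6a ranked 102, Krt16 ranked 157 and Krt17 ranked 3859, and the rank of Krt16, which was selected on this contrast, moved to 226 with cells thinned to 5000 sites and to 291 with cells counted in place of sites.

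**Figure D1:**
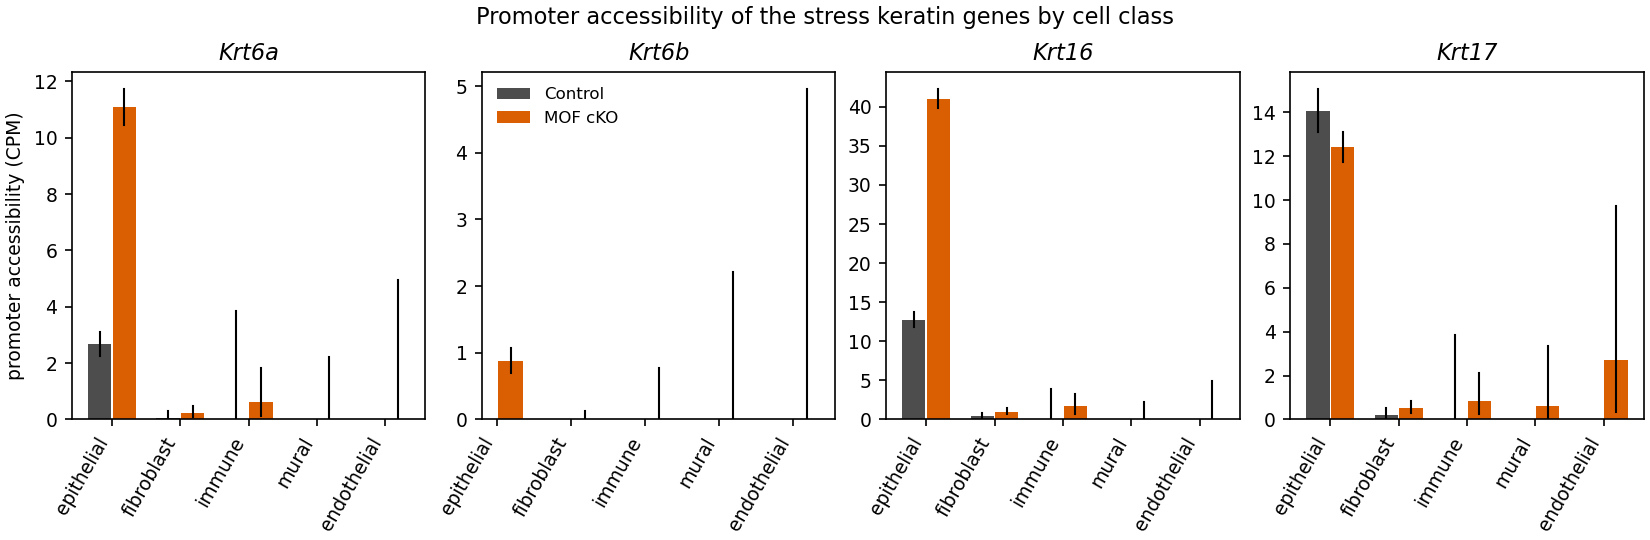
Promoter accessibility in CPM (vertical axis, from 0, a separate scale for each gene) of the 4 stress keratin genes in each class with at least 20 cells in Control (grey) and MOF cKO (orange), with vertical lines for exact 95% Poisson intervals. The epithelial bars stand above all others, with Krt16 at 12.7 and 41.1 CPM, and Krt6b has a bar in MOF cKO alone because Control had no peak there.

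Outside the epithelium the stress keratin promoters held few sites. In fibroblast-like cells, which do not carry the deletion, the Krt16 promoter had 16 sites (0.410 CPM) in Control and 59 sites (0.965 CPM) in MOF cKO, a log2 change of 1.24 (0.10 to 2.595). Krt17 had 8 sites (0.205 CPM) and 31 sites (0.507 CPM), a log2 change of 1.31 (−0.28 to 3.39). Krt6a had 2 and 14 sites, too few for a change. The Krt6b promoter had 0 sites in MOF cKO, where 3 sites would have been 0.0491 CPM and the exact Poisson upper limit was 0.121 CPM. Among all promoters in fibroblast-like cells 1.90% of 16032 were 2-fold or more higher in MOF cKO and 0.767% were lower by that factor. Per kilobase of promoter region MOF cKO fibroblast-like cells had 1.05 CPM per kb at Krt16, 0.579 at Krt17, 0.226 at Krt6a and 0 at Krt6b, and by counting intervals Krt16 lay above Krt6a and Krt6b and Krt17 above Krt6b, while Krt16 and Krt17, Krt17 and Krt6a, and Krt6a and Krt6b overlapped. The Krt16 and Krt17 changes passed 2-fold there, but without the cells of highest doublet score neither did.

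The epithelial markers did not rise as a list in fibroblast-like cells. Of 10 markers 3 were higher in MOF cKO, none was at 0, and their summed level was 62.8 CPM in Control and 59.6 CPM in MOF cKO, with clusters ranging from 54.6 to 66.9 and from 55.3 to 69.5 CPM. Krt14, which encodes the type I keratin of basal cells, was 1 of the 3 and had 1.43 CPM in Control and 4.19 CPM in MOF cKO fibroblast-like cells. The largest part of the sum was Itga6, with 20.6 CPM in Control and 16.9 CPM in MOF cKO, so a rise of a marker with few sites moved the sum little. The part of stray epithelial signal in the fibroblast values was not tested, and the sum cannot show it.

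In immune-like cells of MOF cKO the promoters had 1.66 CPM (0.716–3.27) for Krt16, 0.829 CPM (0.226–2.12) for Krt17 and 0.622 CPM (0.128–1.82) for Krt6a. Control immune-like cells had 0 sites at all 3, where 3 sites would have been 1.57 CPM. The exact Poisson upper limit was 3.86 CPM for each, so the intervals of the 2 libraries overlapped. In MOF cKO mural-like cells Krt6a, Krt6b and Krt16 had 0 sites and Krt17 had 2. In MOF cKO endothelial-like cells Krt17 had 4 sites and the others 0. In the immune-, mural- and endothelial-like cells of MOF cKO the intervals of the 4 promoters overlapped, so no order was detectable there at this depth.

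The share of cells with a promoter site was compared after every cell had been thinned to 10000 sites, which left 1353 Control and 2555 MOF cKO epithelial-like cells after 43 and 85 shallower cells were left out. A Krt16 site was found in 10.7% of Control cells (exact binomial interval 9.12–12.5) and 30.5% of MOF cKO cells (28.7–32.3). A Krt6a site was found in 2.37% (1.62–3.32) and 9.59% (8.47–10.8). Krt17 stood apart from both, with a site in 11.5% (9.81–13.3) of Control and 10.6% (9.44–11.9) of MOF cKO cells.

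In fibroblast-like cells, the background for these shares, a Krt16 site was found in 0.683% of 586 Control and 0.588% of 1191 MOF cKO cells, and a Krt17 site in 0.171% and 0.252%. A Krt6a site was found in 0 Control cells and 0.252% of MOF cKO cells. In Control 3 cells would have been 0.512%, and the exact binomial upper limit was 0.628%. Median depth before thinning was 73671 and 74956 sites in the epithelial-like and 66174 and 50788 sites in the fibroblast-like cells compared. Every epithelial share lay above the fibroblast share of its library.

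At full depth a Krt16 site was present in 34.4% of Control and 71.1% of MOF cKO epithelial-like cells, and a Krt6a site in 8.52% and 29.7%. The cells with a site also held more of them at Krt16, with a mean of 3.08 sites in Control and 4.53 in MOF cKO, whereas at Krt17 the mean was 3.49 and 2.83. A Krt6b site was present in 79 of 2640 MOF cKO cells (2.99%, 2.38–3.72).

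Sites at more than 1 of the promoters in the same cell were counted after the same thinning, in which a cell without a site need not have a closed promoter. In MOF cKO 42.9% of thinned epithelial-like cells (41.0–44.8) had a site at Krt6a, Krt16 or Krt17, against 22.03% (19.8–24.3) in Control. A Krt16 site was found in 33.1% (27.2–39.3) of MOF cKO cells with a Krt6a site and in 30.2% (28.3–32.1) of those without, and the intervals overlapped. In Control the corresponding shares were 25.0% (11.5–43.4) of 32 cells and 10.4% (8.78–12.1) of 1321 cells.

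**Figure D2:**
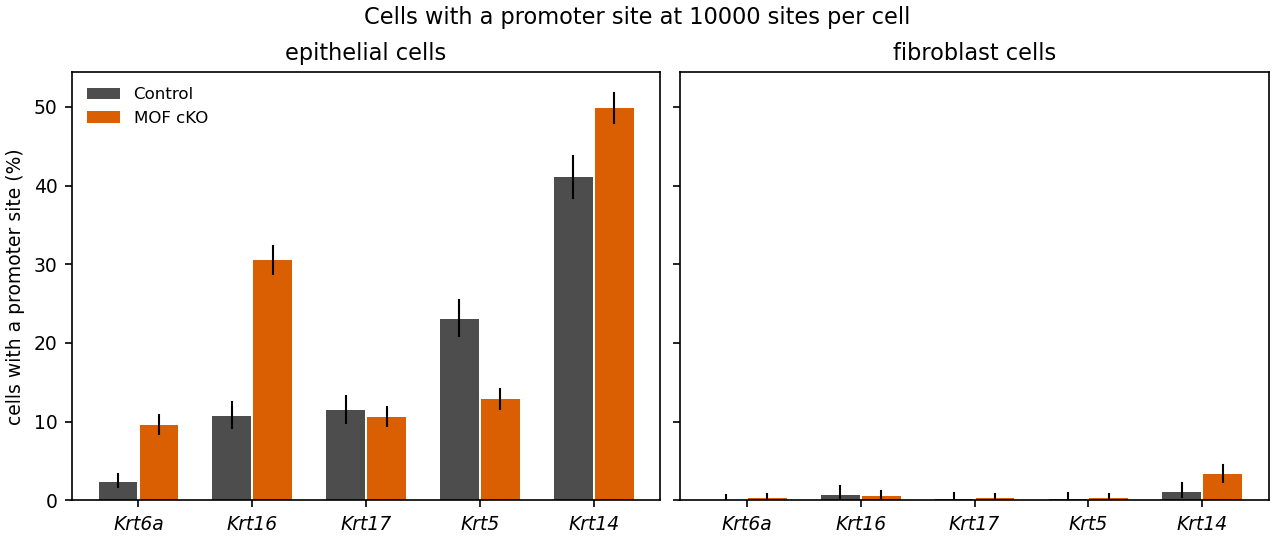
Percent of epithelial-like (left) and fibroblast-like (right) cells with at least 1 promoter site (vertical axis, from 0) after thinning to 10000 sites per cell, in Control (grey) and MOF cKO (orange), with exact 95% binomial intervals. Krt5 and Krt14, the basal keratins, are drawn for comparison, and in epithelial-like cells Krt5 goes from 23.1% to 12.8% and Krt14 from 41.1% to 49.9%. Krt16 goes from 10.7% to 30.5% and Krt17 from 11.5% to 10.6%.

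Clusters of epithelial-like cells were nearly all of 1 genotype, although regions within 500 kb of the 4 genes had been left out of the clustering. Control cells made up clusters 1, 5 and 11, with 771, 520 and 104 cells, and MOF cKO cells made up clusters 0, 2, 4, 12 and 15, with 1142, 730, 558, 91 and 80 cells. Cluster 5 also held 26 MOF cKO cells. A cluster of mostly 1 library may stand for that library and not for a cell state.

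The Krt16 promoter was higher in each of the 5 MOF cKO clusters than in any Control cluster. It lay between 28.4 CPM (24.1–33.0, cluster 15) and 66.2 CPM (50.6–85.0, cluster 12) in the former and between 8.90 CPM (7.06–10.96, cluster 11) and 15.4 CPM (13.999–17.0, cluster 1) in the latter. The 26 MOF cKO cells in cluster 5 had 12.7 CPM (6.42–24.6), close to the 10.9 CPM (9.59–12.5) of the Control cells there.

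The Krt6a promoter did not follow the genotype in every cluster. It had 10.6 CPM (9.70–11.5) in cluster 0 and 19.2 CPM (17.5–20.9) in cluster 2, but only 2.43 CPM (1.80–3.21) in cluster 4. The small clusters 12 and 15 had 20.6 CPM (12.4–32.2) and 8.72 CPM (6.48–11.5), and the MOF cKO cells of cluster 5 had 4.69 CPM (1.46–13.7). The value of cluster 4 lay within the range of the Control clusters, from 1.49 CPM (1.07–2.02) in cluster 1 to 4.60 CPM (3.70–5.59) in cluster 5. Krt6b sites came mostly from cluster 2, with 2.51 CPM (1.94–3.19), against 0.387 CPM (0.233–0.605) in cluster 0 and 0.248 CPM (0.0806–0.579) in cluster 4.

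Krt17 had another order. In Control it was highest in cluster 5, with 23.5 CPM (21.5–25.7), against 8.23 CPM (7.19–9.37) in cluster 1 and 9.96 CPM (8.005–12.1) in cluster 11. In MOF cKO it had 13.98 CPM (12.95–15.1) in cluster 0, 10.8 CPM (9.57–12.1) in cluster 2 and 10.3 CPM (8.97–11.8) in cluster 4. The 26 cells of cluster 5 had 32.1 CPM (20.6–47.8), which overlapped the 28.7 CPM (18.4–41.3) of the shallow cluster 12, and cluster 15 had 8.99 CPM (6.78–11.9). Among epithelial-like clusters cluster 5 also had the highest summed accessibility at the 6 hair follicle markers (Shh, Sox9, Lhx2, Edar, Wnt10b and Nfatc1), with 175.0 CPM in Control and 196.9 CPM in MOF cKO, against 99.3 to 161.6 CPM in the other epithelial-like clusters. Fibroblast-like clusters had 160.1 to 198.1 CPM, so the sum did not set cluster 5 apart from them. The summed periderm markers (Krt8, Krt13, Krt18, Krt19 and Gabrp) were also highest in cluster 5 in Control, with 36.2 CPM against 24.6 in cluster 1 and 21.4 in cluster 11. Over the 6 MOF cKO clusters Krt17 had a Pearson r of 0.86 with the periderm, 0.83 with the hair follicle and 0.80 with the basal sum, so no list stood out. Cluster 5 held 520 of the 1396 Control and 26 of the 2640 MOF cKO epithelial-like cells, so the pooled Krt17 levels mix clusters in unlike shares. Outside cluster 5, the intervals of MOF cKO clusters 0, 2 and 12 lay above that of Control cluster 1, and those of clusters 4 and 15 overlapped it. Against Control cluster 11 only clusters 0 and 12 lay above. The part of the cluster shares in the pooled change was not tested.

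Cluster 2, where Krt6a and Krt6b were both high, had the highest sum at the 5 suprabasal markers measured (Krt1, Krt10, Krtdap, Sbsn and Tgm3) among the MOF cKO clusters, 76.5 CPM. Krt1 and Krt10 themselves were not highest there. They had 8.44 and 13.2 CPM in cluster 2, against 11.6 and 21.5 CPM in cluster 15 and 7.68 and 10.5 CPM in cluster 0. The basal marker sum of cluster 2 was 161.6 CPM, against 220.7 in cluster 0, 217.3 in cluster 4 and 159.9 in cluster 15. In Control cluster 1 the suprabasal sum was 82.95 CPM, so that sum alone did not set cluster 2 apart. Clusters 11 and 15 had median depths of 169762 and 153405 sites per cell with median doublet scores of 0.87 and 0.92, and cluster 12 had a median depth of 17628 sites. Without clusters 11 and 15 the Krt6a, Krt16 and Krt17 changes were 1.99, 1.63 and −0.24, and without cluster 12 they were 2.04, 1.68 and −0.20, choices added after the data were seen.

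**Figure D3:**
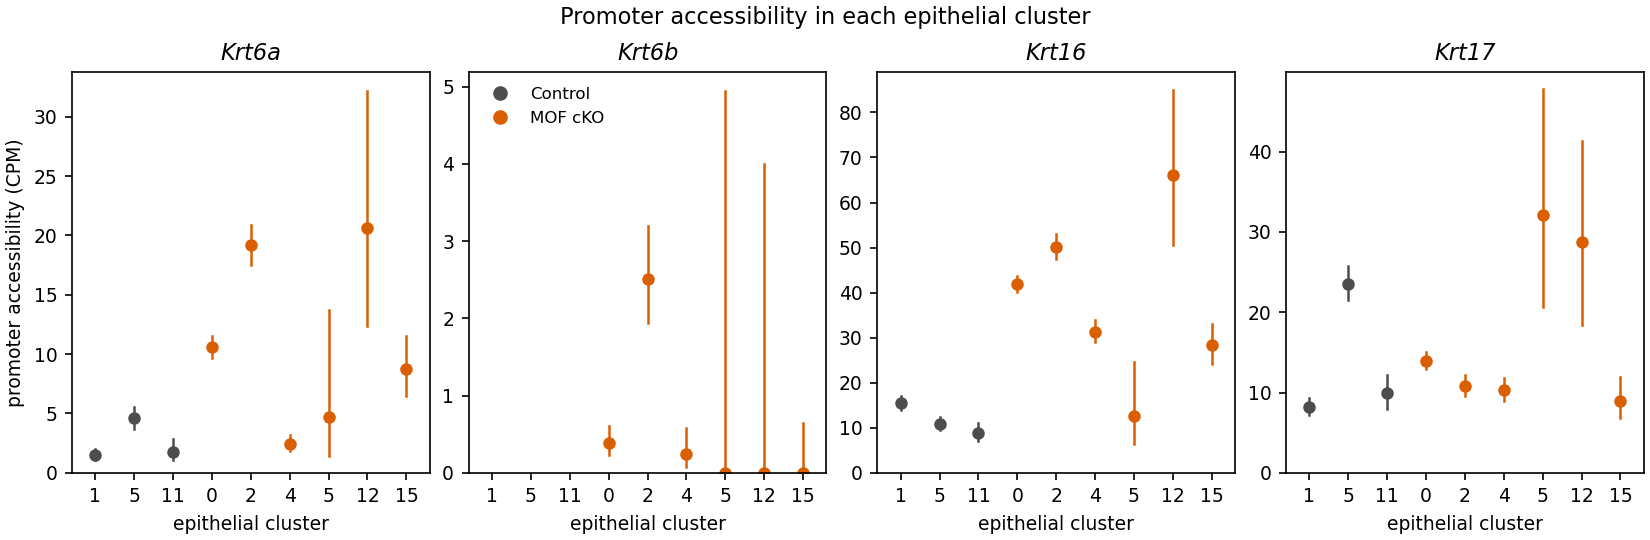
Promoter accessibility in CPM (vertical axis, from 0, a separate scale for each gene) in each epithelial-like cluster with at least 20 cells of a genotype (horizontal axis, cluster numbers), for Control (grey, clusters 1, 5 and 11) and MOF cKO (orange), with exact 95% Poisson intervals. Krt6a spans 2.43 to 20.6 CPM over MOF cKO clusters, Krt6b is highest in cluster 2, and Krt17 has its highest value in cluster 5 in both genotypes, in MOF cKO with an interval that overlaps cluster 12.

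The regions around the genes were described next, on GRCm38 (mm10) and with the annotation GENCODE vM21. All 4 genes lie on the minus strand. Krt6b (ENSMUSG00000023041.7) spans chr15:101676023-101680287 and Krt6a (ENSMUSG00000058354.7) spans chr15:101689910-101694307, with 9622 bp between them. Krt16 (ENSMUSG00000053797.10) spans chr11:100246091-100248902 and Krt17 (ENSMUSG00000035557.9) spans chr11:100256217-100261029, with 7314 bp between them. The Krt6a and Krt6b locus held 11 regions, of which 5 were shared, 5 were called in MOF cKO alone and 1 in Control alone. The Krt16 and Krt17 locus held 14, of which 8 were shared, 4 were called in MOF cKO alone and 2 in Control alone.

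Peaks called in MOF cKO alone were common in these libraries. Such regions made up 33.2% of all merged regions and regions of Control alone 8.92%, beside 9 of 25 and 3 of 25 at the stress keratins. Of the protein-coding genes with any promoter peak, 4.02% had one in MOF cKO alone, among them Krt6b. A region without a peak in a library has no value there, so a lower level and an uncalled peak cannot be told apart.

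In epithelial-like cells 16.8% of all shared regions were 2-fold or more higher in MOF cKO and 12.5% were lower by that factor. At the Krt6a and Krt6b locus 3 of 5 shared regions were higher by that factor and at the Krt16 and Krt17 locus 3 of 8, with 0 lower at either. These counts include the promoter regions of Krt6a and Krt16 described above. As the Krt16 promoter was selected on this contrast, the count at its locus in part restates that selection. In fibroblast-like cells 11.4% of shared regions were 2-fold or more higher and 7.20% lower, and of the 12 regions of the 2 loci with at least 20 sites 3 were higher, the Krt16 and Krt17 promoters and the 3′ end of Krt17, and 1 was lower, the region downstream of Krt16 with 15 and 10 sites.

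Upstream of Krt6a the shared regions up to the one at 6063 bp were more accessible in MOF cKO, and the next was not. The promoter region (chr15:101694067-101695077) rose by 2.06 on the log2 scale (1.82 to 2.31), and it overlaps an exon of the gene. The intergenic region centred 1420 bp upstream of the start site had 4.16 CPM (3.65–4.72) in Control and 7.04 CPM (6.53–7.57) in MOF cKO, a log2 change of 0.76 (0.55 to 0.98). The region at 3382 bp upstream had 1.78 CPM (1.45–2.15) and 4.26 CPM (3.87–4.68), a change of 1.26 (0.95 to 1.59), and the region at 6063 bp had 1.24 CPM (0.972–1.56) and 3.04 CPM (2.72–3.40), a change of 1.29 (0.92 to 1.68). Between these last regions, at 5133 bp, lay 1 region called in Control alone, with 1.30 CPM (1.03–1.64). The region at 10070 bp, the last to reach inside the 10 kb limit, had 5.94 CPM (5.32–6.59) and 5.84 CPM (5.38–6.32), a change of −0.02 (−0.22 to 0.17). The first region beyond the limit, 11369 bp upstream of Krt6a, had 6.64 CPM in Control and 3.98 CPM in MOF cKO, and the first on the other side, 42780 bp downstream of Krt6b, had 1.28 and 1.18 CPM.

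Between Krt6a and Krt6b and at the Krt6b promoter (chr15:101679968-101680774) lay only the 5 regions called in MOF cKO alone. Their epithelial levels were low, between 0.730 CPM (0.579–0.919) at 1241 bp upstream of Krt6b and 1.54 CPM (1.32–1.81) at 5911 bp downstream of the Krt6a start site. The median over the 122539 regions called in MOF cKO alone was 0.744 CPM. Of the larger MOF cKO clusters cluster 2 had the highest values at all 5, from 1.48 to 4.77 CPM, against 0.234 to 0.713 CPM in cluster 0 and 0.248 to 0.471 CPM in cluster 4. The small clusters 5, 12 and 15 had 0 to 1.40 CPM, and the intervals of clusters 5 and 12 overlapped those of cluster 2 at all 5 regions and those of cluster 15 at 2. The regions at 3382 and 6063 bp upstream of Krt6a were also higher in cluster 2 than in clusters 0 and 4, with 10.05 and 6.02 CPM in cluster 2 against 2.57 and 1.86 CPM in cluster 0 and 1.09 and 2.31 CPM in cluster 4. In cluster 0 the Krt6a promoter was thus raised over every Control cluster. The region at 3382 bp, at 2.57 CPM, was above the 1.11 CPM of both Control clusters 1 and 11 but not above the 2.91 CPM of Control cluster 5.

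**Figure D4:**
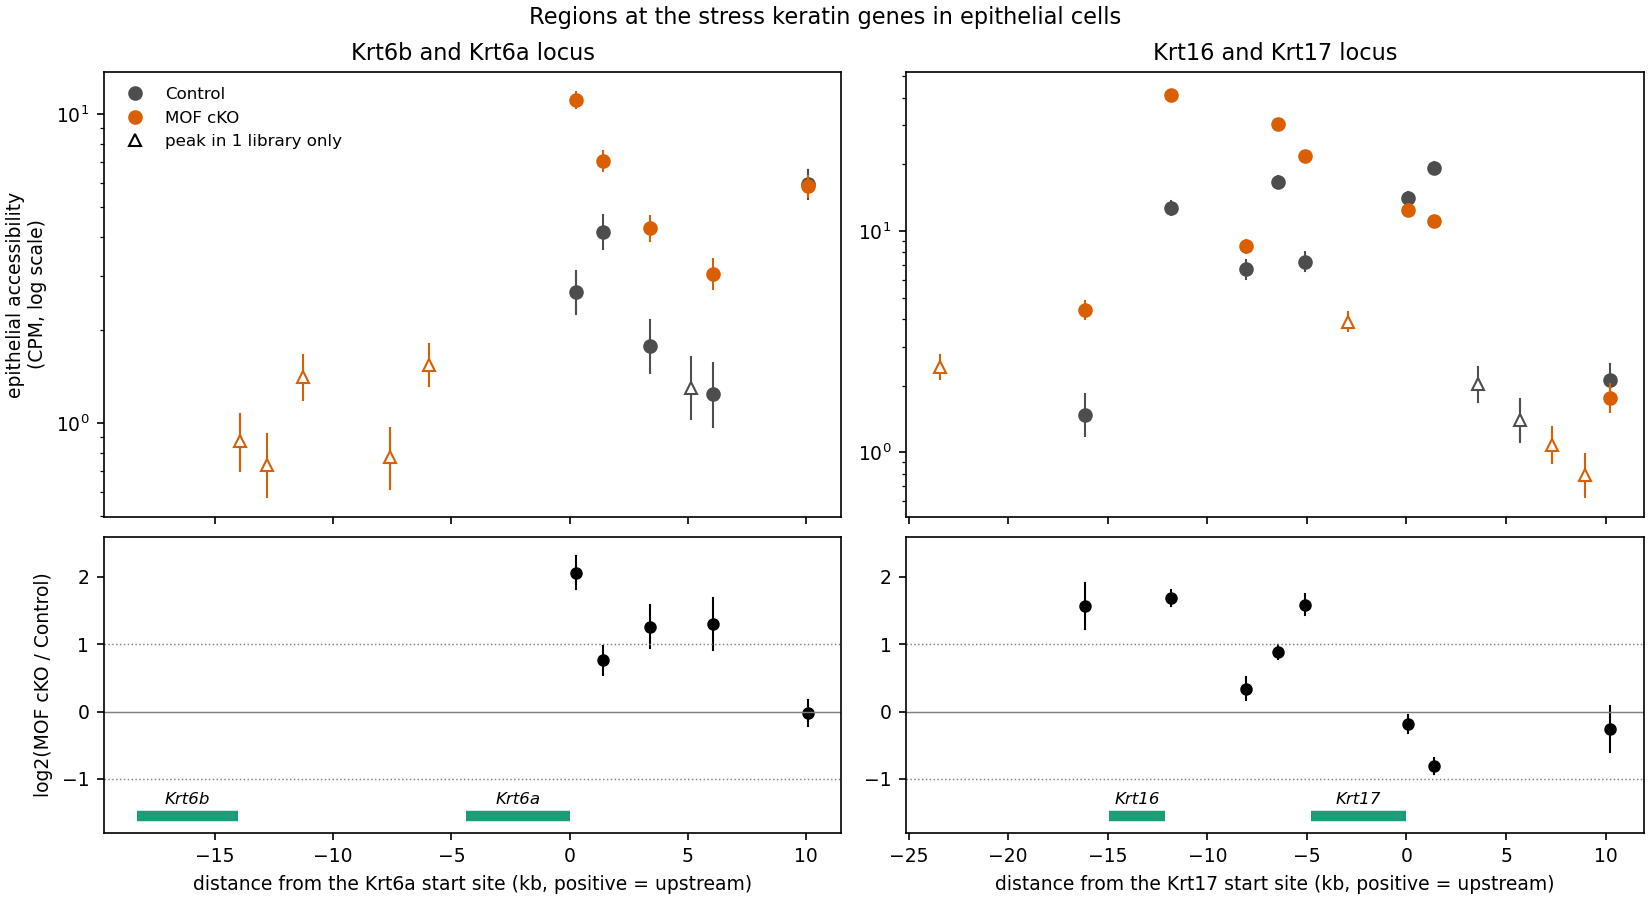
Regions of the Krt6b and Krt6a locus (left) and the Krt16 and Krt17 locus (right) by distance from the Krt6a or Krt17 start site in kb. The upper panels show epithelial-like accessibility in CPM on a log axis in Control (grey) and MOF cKO (orange), with open triangles for regions with a peak in 1 library, and the lower panels show log2(MOF cKO / Control) of shared regions with the genes as green bars. Vertical lines are 95% counting intervals. Values above 0 span Krt16 and reach the 3′ end of Krt17, while the Krt17 promoter is near 0 and the region 1374 bp upstream of it fell by 0.80.

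At the other locus the shared regions from downstream of Krt16 to the 3′ end of Krt17 were higher in MOF cKO. Inside the Krt17 body 1 region was called in MOF cKO alone, with 3.89 CPM (3.52–4.28), and 11319 bp downstream of the Krt16 start site another, with 2.44 CPM (2.14–2.76). The Krt16 promoter region (chr11:100248736-100249657) rose by 1.69 (1.57 to 1.80). The intergenic region 4023 bp downstream of the Krt16 start site, past the end of the gene, had 1.47 CPM (1.19–1.83) in Control and 4.39 CPM (3.99–4.81) in MOF cKO, a change of 1.57 (1.23 to 1.91). Upstream, between Krt16 and Krt17, the region at 4085 bp had 6.71 CPM (6.06–7.41) and 8.51 CPM (7.95–9.09), a change of 0.34 (0.17 to 0.52). The region at 5676 bp upstream had 16.6 CPM (15.6–17.7) and 30.6 CPM (29.5–31.7), a change of 0.88 (0.78 to 0.99), and was the most accessible flanking region of the 2 loci in MOF cKO. The region over the 3′ end of Krt17 (chr11:100255507-100256331, including an exon) had 7.28 CPM (6.60–8.01) and 21.9 CPM (21.01–22.8), a change of 1.59 (1.44 to 1.74).

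The flank before Krt17 held a region that was lower in MOF cKO. The promoter region of the gene (chr11:100260649-100261524) was about level, with the scaling-dependent change given above, and the intergenic region centred 1374 bp upstream (chr11:100261954-100262852) had 19.3 CPM (18.2–20.5) in Control and 11.1 CPM (10.4–11.7) in MOF cKO, a change of −0.80 (−0.92 to −0.68). This was the most accessible of the 13 shared regions in Control. Further upstream, over the neighbouring gene Krt42, 2 regions were called in Control alone, with 2.04 and 1.40 CPM, and 2 in MOF cKO alone, with 1.08 and 0.793 CPM. The region at 10232 bp, the last to reach inside the limit, had 2.11 CPM (1.75–2.51) and 1.76 CPM (1.51–2.03), a change of −0.26 (−0.60 to 0.08), and the first beyond it, 12497 bp upstream of Krt17, had 2.29 and 1.40 CPM, while the first on the Krt16 side, 23817 bp downstream of that gene, had 3.65 and 2.34 CPM.

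The region 1374 bp upstream of Krt17, like the Krt17 promoter, had its highest value in cluster 5 in both genotypes, in MOF cKO with an interval that overlapped cluster 12, and the order of the other MOF cKO clusters differed. In Control it had 30.8 CPM (28.4–33.2) in cluster 5, 12.1 CPM (10.8–13.5) in cluster 1 and 14.9 CPM (12.6–17.6) in cluster 11. In MOF cKO it had 32.8 CPM (20.6–47.8) in the 26 cells of cluster 5, 12.0 CPM (11.03–13.0) in cluster 0, 13.1 CPM (11.6–14.8) in cluster 4 6.76 CPM (5.81–7.83) in cluster 2, 10.3 CPM (7.84–13.3) in cluster 15 and 27.1 CPM (17.5–40.0) in the shallow cluster 12. The intervals of clusters 0 and 4 overlapped that of Control cluster 1, and cluster 2 was lower. By contrast the 3′ end of Krt17 had 14.96 to 33.6 CPM in the 5 MOF cKO clusters and 5.32 to 8.91 CPM in the Control clusters, with 10.7 CPM (4.63–21.1) in the MOF cKO cells of cluster 5.

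The sequence of 4 flanking regions is shown because they carry the contrast within the loci, as the 300 bases at the centre of each on the plus strand of GRCm38, read from the RefSeq genome. Capitals mark the core of the AP-1 site (TGACTCA or its complement TGAGTCA), the motif of Fos and Jun factors, which are regulators of stress keratin genes. The region downstream of Krt16 (chr11:100244730-100245029) and the region 5676 bp upstream of Krt16 (chr11:100254429-100254728), both higher in MOF cKO, each held 1 match. The region 1374 bp upstream of Krt17 (chr11:100262254-100262553), which was lower, and the region 3382 bp upstream of Krt6a (chr15:101697540-101697839), which was higher, held none in this window.
Downstream of Krt16: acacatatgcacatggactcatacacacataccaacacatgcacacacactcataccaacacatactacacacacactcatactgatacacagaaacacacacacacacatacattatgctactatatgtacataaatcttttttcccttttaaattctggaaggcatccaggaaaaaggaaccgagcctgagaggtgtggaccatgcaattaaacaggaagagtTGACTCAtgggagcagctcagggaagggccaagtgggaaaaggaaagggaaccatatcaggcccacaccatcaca
Upstream of Krt16: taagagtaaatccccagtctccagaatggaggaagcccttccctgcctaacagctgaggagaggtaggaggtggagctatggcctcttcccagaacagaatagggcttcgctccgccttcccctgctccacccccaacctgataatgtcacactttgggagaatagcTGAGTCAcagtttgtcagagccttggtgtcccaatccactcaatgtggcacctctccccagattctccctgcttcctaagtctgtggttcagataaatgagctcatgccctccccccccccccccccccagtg
Upstream of Krt17: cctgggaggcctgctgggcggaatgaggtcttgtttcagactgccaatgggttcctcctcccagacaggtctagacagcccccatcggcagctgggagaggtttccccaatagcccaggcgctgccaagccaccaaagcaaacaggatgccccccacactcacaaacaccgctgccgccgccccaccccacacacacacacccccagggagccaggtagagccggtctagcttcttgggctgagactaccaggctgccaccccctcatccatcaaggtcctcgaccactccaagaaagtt
Upstream of Krt6a: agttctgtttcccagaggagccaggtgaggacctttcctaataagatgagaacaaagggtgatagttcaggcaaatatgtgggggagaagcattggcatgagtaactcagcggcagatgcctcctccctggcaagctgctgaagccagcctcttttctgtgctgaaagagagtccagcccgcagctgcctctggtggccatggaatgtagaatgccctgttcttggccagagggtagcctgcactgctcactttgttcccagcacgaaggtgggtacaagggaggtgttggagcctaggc

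Motifs were counted on both strands in such 300 bp windows. The AP-1 core was present in 4 of the 13 shared regions and in 16.0% of all 214119 shared regions. The 4 were the Krt16 promoter with 2 matches, both regions printed above and the 3′ end of Krt17, all at the Krt16 and Krt17 locus. Of the 6 regions that rose past 2-fold, 3 held the core and the 3 at the Krt6a locus did not, but in 500 bp windows 5 of 13 shared regions held it, the fifth being the region 3382 bp upstream of Krt6a, beside 20.1% of all shared regions.

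The antioxidant element TGACNNNGC, read by Nrf2, was present in 1 of 13 regions, where its match overlapped the AP-1 match 5676 bp upstream of Krt16, against 12.6% of all shared regions. The STAT motif TTCNNNGAA was present in 2 of 13 (9.79% of all), the same region and the one 1420 bp upstream of Krt6a. The TATA sequence TATAAA was present in 1 of 13 (15.2% of all), the Krt17 promoter. Windows were centred on the region and not on the start site. The Krt16 and Krt6a promoter regions were centred 294 and 265 bp upstream of the start, so their 300 bp windows did not reach it. A motif near the start site could not be counted at these 2 promoters. The motifs of Grhl (AACCGGTT), C/EBP (TTGCGCAA) and Gli (TGGGTGGTC) were in 0 of 13, and in 0.220%, 0.107% and 0.261% of all shared regions. A match describes letters and not binding.

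Since keratin genes are close copies of each other, the share of overlapping 31-base words that occur once in the chromosomes was computed for every region. It was 74.2% at the Krt16 promoter, 74.9% at the Krt6b promoter, 87.9% at the Krt6a promoter and 94.2% at the Krt17 promoter. In the 4 other shared regions upstream of Krt6a it was at least 99.7%, and in the 4 regions between Krt6b and Krt6a it lay between 83.9% and 98.9%. How reads from the repeated words were placed was not tested, so values at the Krt16 and Krt6b promoters are less certain than those of the flanking regions.

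The stress keratins were set beside other genes. Among the other keratin genes of chromosomes 11 and 15, 23 of 49 had a promoter region in both libraries. Their median log2 change was −0.43, close to the −0.40 of all promoters, and 0 rose past 2-fold while 3 fell past it, beside 2.31% and 2.29% of all promoters. In fibroblast-like cells 21 were measured, with a median of 0.03, and 3 rose past 2-fold while 1 fell past it, beside 1.90% and 0.767% of all promoters there. Of the 3, Krt13 (7 and 31 sites) and Krt77 (3 and 22 sites) had intervals that included 0, and Krt14 did not. The largest increases in epithelial-like cells were 0.46 for Krt14 and 0.31 for both Krt8, of simple epithelia, and Krt86, a hair keratin. The lowest values were −1.13 for Krt77, −1.01 for Krt7 and −1.01 for Krt9. The Krt14 promoter went from 58.8 CPM (Control) to 80.8 CPM (MOF cKO). That of Krt5, the other basal keratin, went the other way, from 28.8 CPM to 14.8 CPM, a change of −0.96 (−1.06 to −0.86).

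Of 20 genes known from wounded or inflamed epidermis, 18 had a promoter region in both libraries, with a median of 0.31 against −0.40 for all promoters. Past 2-fold 4 rose and 0 fell, beside 2.31% and 2.29% of all promoters. In fibroblast-like cells the median of 17 of these genes was 0.40 against −0.03 for all promoters, so higher values of this list were not limited to the epithelial-like cells. There 3 rose past 2-fold while 0 fell, beside 1.90% and 0.767%. Mmp9 rose by 1.51 (1.11 to 1.96), but the intervals of Defb14 (2 and 18 sites) and Sprr1a (19 and 62 sites) included 0. The part of stray epithelial signal was not tested. Sprr1b, a cornified envelope precursor, rose from 1.72 to 9.84 CPM, by 2.51 (2.21 to 2.82) on the log2 scale. Defb14, an antimicrobial peptide, rose from 2.42 to 10.7 CPM, by 2.14 (1.89 to 2.41), and Il1rn, the interleukin-1 receptor antagonist, from 6.03 to 18.9 CPM, by 1.65 (1.48 to 1.82). The fourth was S100a9, a calcium-binding alarm protein, at 1.08 (0.89 to 1.26), named although it fell outside the rule for named genes. The lowest values were −0.59 for the gap junction gene Gjb6, −0.35 for the integrin gene Itga5 and −0.32 for the gap junction gene Gjb2.

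Promoters of 20 factors and signalling genes known to act on stress keratins had a median of −0.49 against −0.40 for all promoters, and 0 rose past 2-fold while 1 fell past it, which is near the background of 2.31% and 2.29%. Trp63, the master factor of stratified epithelia, had 26.3 CPM in Control and 12.5 CPM in MOF cKO, a change of −1.07 (−1.18 to −0.97). It was also lower in MOF cKO fibroblast-like cells, with 6.02 and 3.11 CPM, a change of −0.95 (−1.37 to −0.56), so its lower value was not limited to epithelial-like cells. The median of the list in fibroblast-like cells was 0.02 against −0.03 for all promoters, with 0 past 2-fold either way. In epithelial-like cells the next lowest values followed. Fos was at −0.78 and Stat3 at −0.76. The highest were Fosl1 at 0.07 (−0.02 to 0.15), Cebpb at 0.00 (−0.09 to 0.10) and Egfr at −0.08 (−0.18 to 0.02). The lists were chosen with results of these libraries known, and their medians moved with the scaling.

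**Figure D5:**
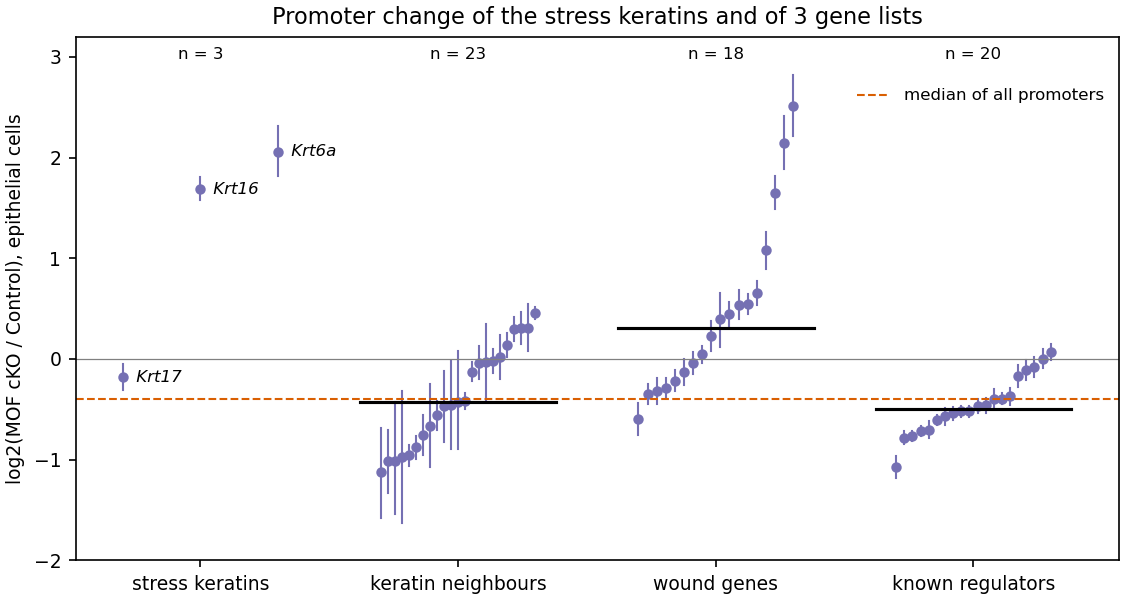
Change at promoters in epithelial-like cells, log2(MOF cKO / Control) (vertical axis), of the 3 stress keratin genes with a value in both libraries and of the measured genes of 3 lists (columns, genes in order of change). Points are genes, vertical lines 95% counting intervals, black bars list medians and the dashed line the median of all promoters, −0.40. Krt6a and Krt16 lie above all keratin neighbours, and 4 wound genes lie above 1.

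The genes most like each stress keratin were found from promoter CPM, log2(CPM + 1), over the 8 groups of class and genotype with at least 20 cells, among 15770 genes. The points share 2 libraries and differ mainly between epithelial-like and other cells. Krt6a was most like Tchhl1 (Pearson r 0.998), a trichohyalin-like gene, Rbp2 (0.997), a retinol-binding protein, and Tmprss11b (0.997), a membrane serine protease. Tchhl1 had 1.77 CPM in Control and 6.41 CPM in MOF cKO epithelial-like cells. Krt16 was most like Nrap (0.997), Tmprss11a (0.997) and Izumo3 (0.996), and Krt17 was most like Aldh1a1 (0.996), a retinaldehyde dehydrogenase, S100a14 (0.991), a calcium-binding protein, and Krt15 (0.990), a keratin of basal and follicle cells. Krt15 had 25.2 CPM in Control and 23.0 CPM in MOF cKO epithelial-like cells. Among the stress keratins themselves r was 0.985 for Krt6a and Krt16, 0.870 for Krt16 and Krt17 and 0.848 for Krt6a and Krt17.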

How the data were processed

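Single-cell ATAC-seq of 1 Control and 1 MOF cKO library was used. The authors made the count files with Cell Ranger ATAC (cellranger-atac 2.0.0, Cell Ranger ARC reference for mm10), and the deposited counts are transposition cut sites per peak and barcode. Cells and peaks were called in each library separately, so peaks of both libraries were merged where they overlapped, and levels were compared between libraries only in regions with a peak in both. Since 88.8% of Control and 91.6% of MOF cKO values were even and a fragment has 2 ends, intervals were computed on fragments (sites divided by 2), as exact Poisson intervals for levels, exact conditional binomial intervals for ratios and exact binomial intervals for shares, all at 95% and for counting error only.

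Barcodes under 1000 sites were left out. TF-IDF values of 50000 regions, without the 368 shared regions within 500 kb of the 4 genes, were reduced to 30 singular vectors, of which 28 were used, and clustered by the Leiden algorithm (resolution 1, 20 neighbours). A cluster was named if at least 3 markers of a class exceeded the clusters of all other classes 2-fold (pseudocount 5 CPM), more than of any other class, and if its leading genes did not go against the name. Cluster 9 stayed unnamed because 5 fibroblast markers and as many of another class passed. Doublets were not removed, and a score from simulated doublets was used in an alternative that left out the top 5%. Sites of a gene's regions within 500 bp of any annotated start were summed as its promoter, and genes needed 20 sites over both libraries.

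A promoter or region was called changed past 2-fold. Genes were named by a fixed rule, namely the 4 keratins, the 3 highest and 3 lowest changes of each list with at least 100 sites, the 3 most similar genes to each keratin with at least 500 sites, and at each locus the regions with most sites or the largest changes. Other genes and regions of the loci were described in addition. The 4 genes, the lists and the rules were chosen with earlier results of these data known. Alternatives used other totals, thinning, thresholds, clustering, promoter windows and motif windows.

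The interval calculation was checked on counts simulated from the Poisson model of independent fragments that it assumes. There 95.5% of 2000 intervals held the true change for epithelial-like cells (16163 genes) and 96.2% for fibroblast-like cells (16022 genes). Such counts cannot show whether that model holds for these cells. Python 3.11.15, scikit-learn 1.9.0, scipy 1.17.1, leidenalg 0.10.2 on igraph 0.11.9, pandas 2.3.3, numpy 2.4.6, pysam 0.24.0, samtools 1.23.1 and matplotlib 3.10.9 were used.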

Additional observations from a re-analysis of the deposited data

How the results depend on the processing

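Krt6a and Krt16, the latter selected on this contrast, remained the 2 members past 2-fold at the promoter in epithelial-like cells under every alternative run. Of the regions 6 were higher by that factor, beside 16.8% of all shared regions, or 8 with median-of-ratios size factors. Those factors raised all values alike, and the share of all promoters past 2-fold went from 2.31% to 4.42%. The share of all shared regions with them is not given. Changes on the log2 scale moved as follows. With each library's total taken over all of its peaks, Krt16 was at 1.54, Krt17 at −0.33 and the medians of keratin neighbours, wound genes and regulators at −0.57, 0.16 and −0.64. With median-of-ratios size factors, Krt6a was at 2.46, Krt16 at 2.09, the list medians at −0.026, 0.71 and −0.091, and Krt17 turned to 0.22. Thinned to 5000 sites, Krt17 was at 0.089 (−0.44 to 0.63), Krt6a at 1.66, Krt16 at 1.49 and the keratin neighbours at −0.23, and 1 region fell past 2-fold. When cells were counted in place of sites, Krt17 was at 0.040 (−0.19 to 0.27), Krt6a at 1.80, Krt16 at 1.05 and the regulators at −0.15. These 2 Krt17 intervals covered 0 and the main value of −0.18, so they show no turn in direction. With promoters within 1000 bp, the sums also took in the regions centred 1420 bp upstream of Krt6a and 1374 bp upstream of Krt17. Krt6a was then at 1.41 and Krt17 at −0.51. Apart from the construction of each alternative, the cause was not tested.

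The 2 members past 2-fold in fibroblast-like cells became 1 with sites per cell, with all regions in the clustering and at Leiden resolution 0.5. They became 0 with thinning, with cells counted, with cells of at least 5000 sites and once the top doublet scores were left out. With promoters within 1000 bp Krt17 was at 0.47 in these cells and so no longer passed, while the count of members past 2-fold stayed at 2. The 2 were then Krt16 and Krt6a, whose sum took in a further region. The share of Control and MOF cKO cells with a site depended on depth, at 5000 sites being 1.37% and 4.77% for Krt6a, 6.87% and 17.2% for Krt16 and 5.86% and 6.23% for Krt17, and unthinned 8.52% and 29.7%, 34.4% and 71.1%, and 33.5% and 34.4%. In 500 bp windows 2 of 13 shared regions held the antioxidant element (18.9% of all shared regions) and 3 the STAT motif (15.8%). The TATA sequence was in 4 (25.7%) and the AP-1 core in 5 (20.1%). Counting the unnamed cluster 9 as epithelial, an alternative added after the data were seen, left Krt6a at 2.06, Krt16 at 1.69 and Krt17 at −0.19. Its leading class was fibroblast, and counting it as that was not run.

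No paired analysis was possible because each genotype had 1 library, so animal, preparation and genotype cannot be told apart and no value carries an error between animals. Control values at regions without a Control peak are missing, and the few sites outside the epithelium limit what can be said there.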
